A study of Drosophila melanogaster with 6 samples.

Results

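The 71 genes described here encode proteins of the mitochondrial ribosome and were measured by RNA-seq in *Drosophila melanogaster* wing discs. They were chosen by name, as every gene whose FlyBase symbol starts with mRpL or mRpS followed by a digit and whose counts summed to at least 10 over the 6 libraries. All 71 such genes met that minimum, of 17471 genes in the tables and 10841 genes tested, and the choice used no difference between genotypes. By symbol, 47 belong to the large subunit (mRpL) and 24 to the small subunit (mRpS). A further 2 genes with such symbols, *mRpS5* and *mRpS34*, were not analysed here.

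Mitochondria translate the few proteins encoded by their own genome, all of them subunits of the respiratory chain and of ATP synthase, on a ribosome of their own. The RNAs of that ribosome come from the mitochondrial genome, whereas its proteins are encoded in the nucleus, made in the cytosol and imported. Many of these proteins descend from bacterial ribosomal proteins and keep their numbers, and the others were added in the evolution of mitochondria. The split by symbol is one of names, since the mammalian counterparts of *mRpS18A* and *mRpS30* sit in the large subunit.

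Each sample held 30 wing discs of female larvae in the third instar, taken at the wandering stage, and each genotype had 3 samples. The mutant samples were homozygous for dLsd1∆N (dLsd1∆N/dLsd1∆N), a loss-of-function deletion made by recombination between piggyBac insertions in *dLsd1*, the gene of a histone demethylase that FlyBase calls *Su(var)3-3*, and kept in a balanced stock. The *wild-type* samples came from w1118, an inbred stock that was not isogenised, so that the deletion and other differences between the stocks cannot be told apart. The labels do not say whether the samples of a genotype came from separate crosses, so the p-values measure the spread between these samples.

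The library totals ran from 13960866 to 45909324 counts, and the lowest count of any of the 71 genes in any library was 170. The deleted gene, *Su(var)3-3*, had 2136, 676 and 2564 counts in *wild-type* replicates 1 to 3, whereas mutant replicates 1 to 3 had 7, 6 and 1, an order in which per-library values are given throughout. All 9 wing disc markers examined were expressed, at a summed level of 1310.1 to 2453.7 CPM (counts scaled to a library of 1000000 with TMM factors) in *wild-type* and 1665.3 to 1854.3 CPM in mutant libraries, and none passed the test (5 rose without *wild-type* replicate 3). *Wild-type* replicate 3 stood apart from the other *wild-type* libraries. Its wing disc markers were the highest of the 6 libraries, and the 6 fat body markers summed to 60.1 CPM against 572.9 and 858.9 CPM in *wild-type* replicates 1 and 2 and 117.4 to 555.0 CPM in the mutants. None of the markers of the fat body, muscle, haemocytes or trachea was at 0 in all libraries of a genotype. The 8 muscle markers summed to 93.4 to 108.8 CPM in *wild-type* and 92.2 to 159.1 CPM in mutant libraries, with a median log2 fold change of 0.85 and 7 positive values. *Mlc2* (0.63) was the only muscle marker past the adjusted p, whereas 4 passed it with the replicate number as a block and 3 without *wild-type* replicate 3. Of the 6 fat body markers, 3 were positive and 3 negative with a median of -0.20, and *Lsp1alpha* (2.17) alone passed, whereas 2 rose and 1 fell with the block. Of the 6 haemocyte markers, 5 were positive with a median of 0.37, and the exception *NimC1* (-1.88) alone passed, joined by 1 marker that rose with the block. The 3 tracheal markers summed to 730.7 to 791.4 CPM in *wild-type* and 533.8 to 653.0 CPM in mutant libraries, without overlap. Of them 1 was positive and 2 negative with a median of -0.30, and *serp* alone passed, as a fall. The block also called 1 fall. Without *wild-type* replicate 3, 1 rose and 2 fell, where 20.2% of all features rose and 17.7% fell. The call of *Mlc2* held only without *wild-type* replicate 3 among the 6 fits that left out 1 library (0.104 to 0.279 in the other 5). That of *Lsp1alpha* was lost without mutant replicate 1, mutant replicate 2, *wild-type* replicate 1 or *wild-type* replicate 2 (0.143 to 0.226), and that of *NimC1* without any 1 mutant library or *wild-type* replicate 1 (0.103 to 0.197). The 5 neuronal markers summed to 6.8, 7.7 and 26.9 CPM in *wild-type* and 14.1, 20.2 and 20.5 CPM in mutant libraries. Of them 3 were positive and 2 negative with a median of 0.45, and *ChAT* alone passed, as a rise. The block also called 1 rise, and 2 rose without *wild-type* replicate 3. *ChAT* had at most 2 counts in any *wild-type* library and at least 149 in every mutant library. It was called in all 6 fits that left out 1 library. The part of such tissues in the results was not tested.

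Levels of the 71 genes fell in a narrow band. Per kb of exon, the genes had a median level of 44.5 CPM in *wild-type* and of 38.4 CPM in mutant discs, and 69 and 67 of the 71, respectively, lay within 2-fold of that median. The highest mean level in *wild-type* was that of *mRpL30*, at 87.3 ± 9.78 CPM per kb (SD, n = 3), a large subunit protein with a bacterial counterpart. Next to it in that order were *mRpS16* at 83.9 ± 6.68, *mRpS10* at 83.0 ± 9.37 and *mRpL12* at 82.5 ± 9.41 CPM per kb (SD, n = 3), which did not differ from it beyond their spread. In bacteria the counterpart of *mRpL12* forms the flexible stalk that brings the elongation factors to the ribosome. At the other end stood *mRpS14*, a protein of the head of the small subunit, with 12.5, 15.3 and 13.6 CPM per kb in *wild-type* and 14.3, 14.2 and 9.06 CPM per kb in mutant libraries. Above it came *mRpL21* at 18.0 ± 2.02, *mRpL10* at 27.0 ± 3.81 and *mRpL40* at 28.2 ± 2.22 CPM per kb in *wild-type* (SD, n = 3). The counterpart of *mRpL10* in bacteria anchors the stalk, so that in *wild-type* the levels per kb of the base and of the stalk protein stood near opposite ends of the order. These 4 genes kept the lowest 4 places, in the same order, in the mutant, whereas the highest place in the mutant was taken by *mRpL20*, which held place 17 in *wild-type*. In the plot of the levels per kb, most genes lie close to the diagonal and below it.

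**Figure D1:**
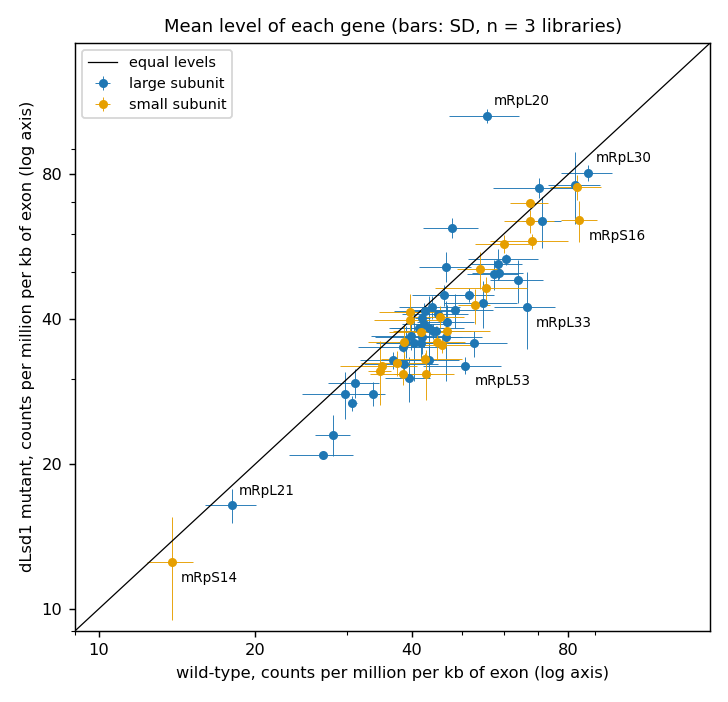
Mean level of each of the 71 genes in *wild-type* (x axis) and mutant (y axis) discs, in CPM per kb of exon on log axes, with bars for the SD over 3 libraries and a line of equal levels. 7 genes lie above the line, *mRpL20* the farthest from it at 55.7 CPM per kb in *wild-type* and 105.6 CPM per kb in the mutant, and *mRpS14* and *mRpL21* are the lowest in both.

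In the comparison of mutant with *wild-type* discs, *mRpL20* was the only one of the 71 genes that rose, and *mRpL53*, *mRpL33* and *mRpL54* fell. These 4 genes passed an adjusted p of 0.1 in edgeR, 1 of 71 upwards and 3 of 71 (4.23%) downwards, where 5.23% of all features tested rose and 3.14% fell (8.37% in all). With an absolute log2 fold change above 0.6 required as well, *mRpL20*, *mRpL33* and *mRpL53* remained, 3 of 71, against 7.01% of all features (4.77% up, 2.24% down). The shares of called genes were thus near or below those of all features. The other 67 genes did not pass the test, and their values are given as measured. In whole discs, fewer cells of a type and less RNA per cell cannot be told apart.

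**Figure D2:**
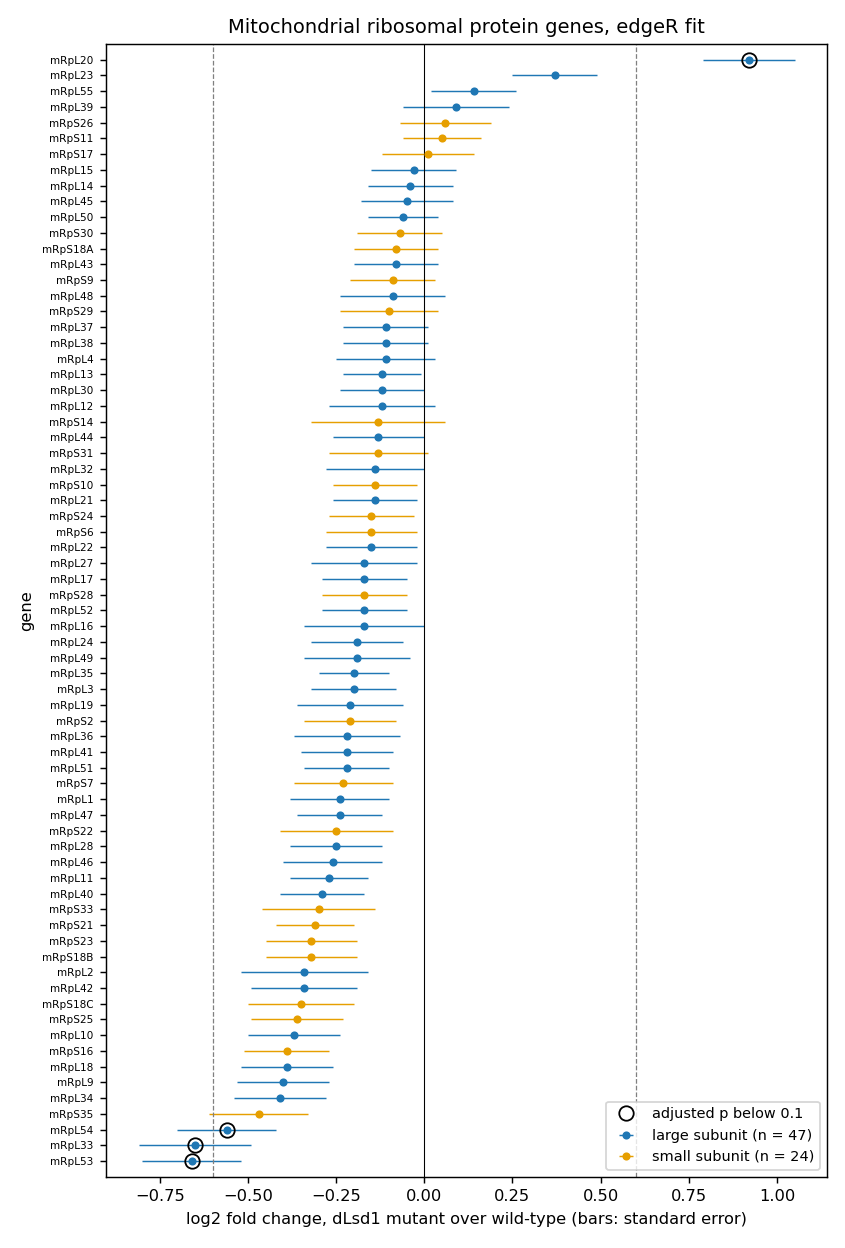
Log2 fold change of the mutant over *wild-type* for each of the 71 genes in order, with bars for the standard error of the edgeR fit, colours for the subunit, circles around the 4 genes with an adjusted p below 0.1 and dashed lines at -0.6 and 0.6. The values run from -0.66 (*mRpL53*) to 0.92 (*mRpL20*), and 64 of 71 lie below 0.

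*mRpL20* encodes a large subunit protein whose bacterial counterpart binds the ribosomal RNA early in subunit assembly. It was at 39.1, 32.6 and 28.9 CPM in *wild-type* and at 61.9, 62.8 and 66.0 CPM in mutant libraries. Every mutant library was above every *wild-type* library, and the lowest mutant value was well above the highest *wild-type* value. Its log2 fold change was 0.92 ± 0.13 (SE), a rise of 89.4%, with an adjusted p of 0.00516 in edgeR. *mRpL20* took 1.08% to 1.25% of the counts of the 71 genes in *wild-type* and 2.29% to 2.64% in mutant libraries. Set against the *wild-type* library of the same replicate number, the mutant was higher by 0.66, 0.94 and 1.19 on the log2 scale for numbers 1, 2 and 3. It was the only one of the 71 genes that was called in all 15 fits, and over the fits that left out 1 library its log2 fold change stayed between 0.82 and 1.05, with an adjusted p of 0.0321 at most.

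*mRpL20* lies on the reverse strand of chromosome 3L, from 13017149 to 13017867 (dm6), with 3 exons and 602 exon bases, and shares no exon base with another gene. The start of *Icmt* lies 399 bases away on the opposite strand, and its log2 fold change was 0.06 ± 0.12 (adjusted p = 0.827, edgeR). On the other side, *CG11267* had a log2 fold change of -0.10 ± 0.10 (adjusted p = 0.647, edgeR). Neither neighbour passed the test. The *dLsd1* gene is on the same arm, 7208514 bases away. The members within 1 Mb of the deletion were *mRpL15*, 204860 bases from it, with a log2 fold change of -0.03 ± 0.12, and *mRpL21*, 971320 bases from it, with -0.14 ± 0.12, and neither passed the test.

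*mRpL53*, a protein of the large subunit without a bacterial counterpart, had 49.9, 40.3 and 35.9 CPM in *wild-type* and 27.4, 25.3 and 27.0 CPM in mutant libraries. The groups did not overlap, and the mutant libraries lay close together. Its log2 fold change of -0.66 ± 0.14 (adjusted p = 0.0285, edgeR) was the lowest of the 71. The adjusted p passed 0.1 when mutant replicate 1, 2 or 3 was left out, at 0.101, 0.119 and 0.113, with the log2 fold change between -0.69 and -0.65. All 829 of its exon bases also belong to *CG33155*, which has the same start and end on chromosome 2R and the same strand. The counts of the 2 genes were nearly identical, with 2044, 564 and 1626 for *mRpL53* and 2047, 565 and 1635 for *CG33155* in *wild-type*, so the fall cannot be assigned to either of them alone.

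*mRpL33*, the counterpart of a small bacterial protein of the large subunit, had 26.5, 20.3 and 22.8 CPM in *wild-type* and 14.7, 12.2 and 17.6 CPM in mutant libraries. All mutant values were below all *wild-type* values, with the narrowest gap between mutant replicate 3 and *wild-type* replicate 2. Its log2 fold change was -0.65 ± 0.16 (adjusted p = 0.0614, edgeR). Without mutant replicate 1, mutant replicate 2 or *wild-type* replicate 1 the adjusted p was 0.184, 0.188 and 0.225. It is a short gene of 349 exon bases on the X chromosome, and *norpA*, whose start lies 395 bases away on the opposite strand, had a log2 fold change of 0.86 ± 0.54 (adjusted p = 0.452, edgeR), with 1.04 and an adjusted p of 0.0541 with the replicate block and 1.67 and 0.00921 without *wild-type* replicate 3.

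*mRpL54*, another protein of the large subunit without a bacterial counterpart, had 40.8, 37.2 and 29.7 CPM in *wild-type* and 25.8, 22.8 and 24.3 CPM in mutant libraries. The groups did not overlap here either, and *wild-type* replicate 3 was the nearest to the mutants. Its log2 fold change was -0.56 ± 0.14 (adjusted p = 0.055, edgeR), short of the fold threshold. Leaving out *wild-type* replicate 1, *wild-type* replicate 2 or any mutant library gave an adjusted p between 0.115 and 0.194. *CG15653*, whose start is 242 bases away on the opposite strand, had a log2 fold change of -0.41 ± 0.22 (adjusted p = 0.367, edgeR, and 0.0973 without *wild-type* replicate 3).

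Next in order were genes that the test did not call. *mRpS35*, a small subunit protein without a bacterial counterpart, had 53.2, 51.5 and 41.4 CPM in *wild-type* and 40.0, 33.7 and 31.9 CPM in mutant libraries. Its log2 fold change was -0.47 ± 0.14 (adjusted p = 0.111, edgeR), the lowest among small subunit genes. At the upper end, *mRpL23* had 37.7, 32.9 and 29.6 CPM in *wild-type* and 41.8, 42.2 and 45.7 CPM in mutant libraries. In bacteria its counterpart lines the exit of the tunnel through which the new protein chain leaves the ribosome. Its groups did not overlap, and its log2 fold change was 0.37 ± 0.12 (adjusted p = 0.138, edgeR), with 0.0183 after removal of the trend with exon length described below. The start of *CG9004* lies 24 bases from that of *mRpL23* on the opposite strand, and *CG9004* rose by a log2 fold change of 0.41 ± 0.10 (adjusted p = 0.0635, edgeR), a call that was lost without any 1 of the libraries except *wild-type* replicate 3 (0.154 to 0.239). The remaining genes among the 4 highest were *mRpL55*, at 0.14 ± 0.12, and *mRpL39*, at 0.09 ± 0.15, whose groups overlapped.

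**Figure D3:**
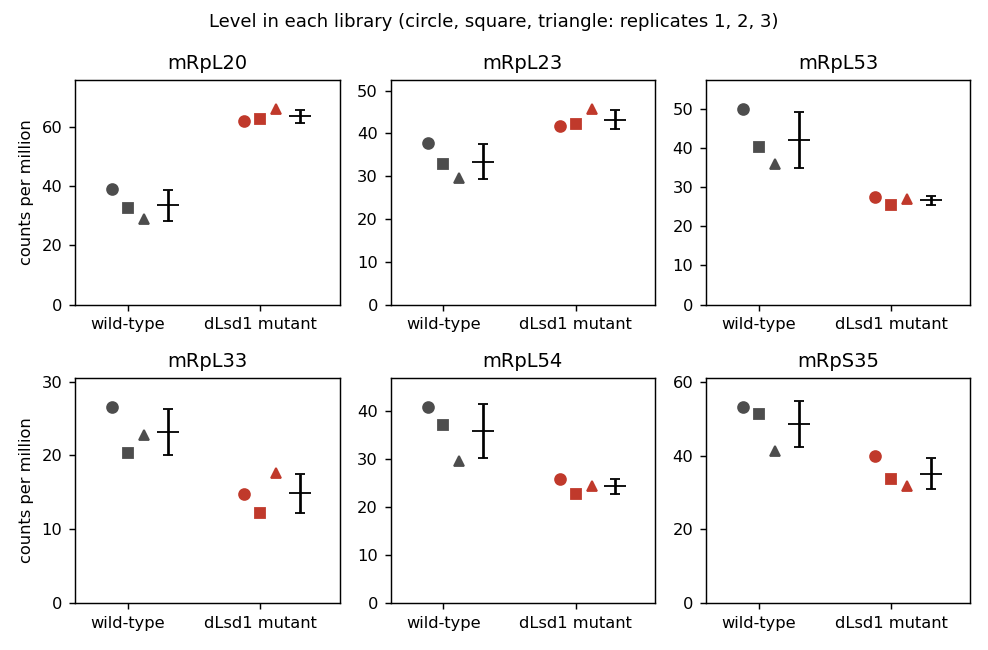
Level of 6 genes in each library in CPM, with circle, square and triangle for replicates 1, 2 and 3 and a bar for the mean and SD (n = 3 libraries per genotype). *mRpL20* and *mRpL23* are higher in all 3 mutant libraries than in any *wild-type* library, and *mRpL53*, *mRpL33*, *mRpL54* and *mRpS35* are lower in all 3.

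Most of the 71 genes had lower values in the mutant by an amount that the test did not separate from the spread. The log2 fold change was negative for 64 of 71 (90.1%) against 51.5% of all features tested, and its median was -0.17, a decrease of 11.1%, against -0.01 over all features. The quartiles were -0.28 and -0.11. The median was -0.17 over the 47 large subunit genes and -0.16 over the 24 small subunit genes, with 43 and 21 negative values. It was -0.17 both over the 41 genes that carry the number of a bacterial protein and over the 30 numbered above those. By chromosome, the median ran from -0.28 on 2R (12 genes) to -0.13 on 3L (15 genes). Small subunit and large subunit genes thus had like values, and the summed level of the large over that of the small subunit was 1.81, 1.76 and 1.84 in *wild-type* and 1.83, 1.85 and 1.84 in mutant libraries.

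Short genes of like level had nearly the same median, with a smaller share of negative values. The 71 genes are short, with a median of 783 exon bases against 2070 over the tested protein-coding genes. A set of 2327 tested genes, the 71 included, had exon lengths and mean levels within the range of the 71. Its median log2 fold change was -0.15, and 75.5% were negative. Over the 2423 tested genes of the same range of levels but with longer exons, the median was 0.01 and 47.8% were negative. When the trend with exon length was taken out of each library before the fit, an alternative chosen after seeing the data, the median of the 71 was -0.05, with 52 negative (73.2%). Over the genes of like length and level the median was then -0.04 and 59.3% were negative, and of all features 49.6% were negative. *mRpL20* then had a log2 fold change of 1.05 and *mRpL53* of -0.54, and *mRpL20* alone passed both thresholds, as did 7.6% of all features, with 6 of the 71 at the adjusted p alone (10.2% of all features). Among the 71 themselves, the log2 fold change had a weak relation to exon length (Pearson r = 0.12, Spearman rho = 0.20). It had next to none to the *wild-type* level per kb (r = 0.01, rho = -0.04), across genes measured in the same libraries. For r, length and level were taken on the log2 scale.

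**Figure D4:**
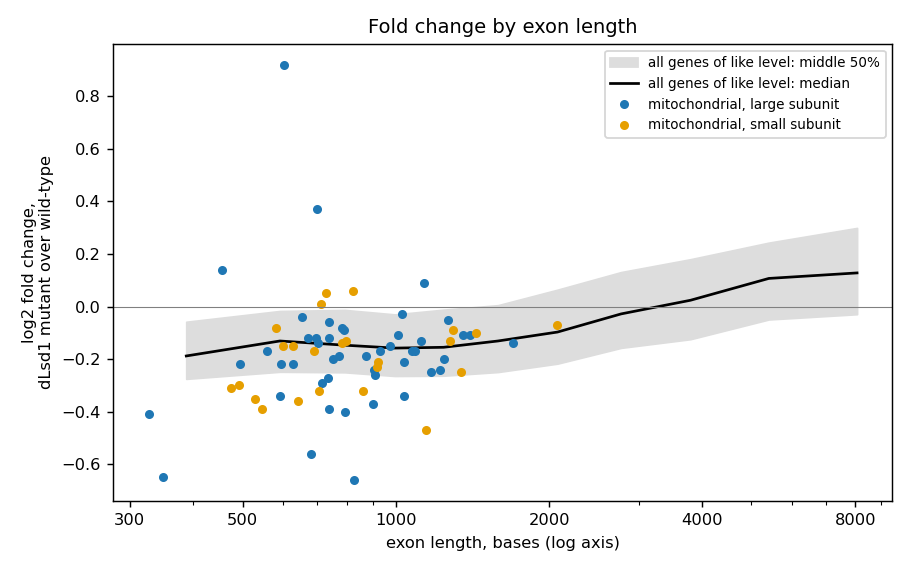
Log2 fold change of the mutant over *wild-type* against exon length in bases (log axis), for the 71 genes (points) and for all tested genes with a mean level in their range (line for the median and band for the middle 50% of genes in bins of length). The median of all genes lies at or below -0.13 up to 1800 bases and rises to 0.13 in the longest bin, and *mRpL20* stands above the band.

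*Wild-type* replicate 3 carried much of the spread. The summed level of the 71 genes was 3135.4, 3007.6 and 2497.1 CPM in *wild-type* and 2699.8, 2573.4 and 2494.9 CPM in mutant libraries. *Wild-type* replicates 1 and 2 were thus above all mutant libraries, whereas replicate 3 was within the range of the mutants. It had the lowest *wild-type* value for 63 of the 71 genes. By replicate number, the median log2 ratio of mutant to *wild-type* was -0.23 and -0.26 for numbers 1 and 2, with 63 and 64 genes lower, and -0.04 for number 3, with 44 genes lower.

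The genes of like length and level shared this pattern. The 2327 genes of the members' range of length and level had a median deviation, from each gene's mean over the 6 libraries, of 0.16, 0.11 and -0.07 in *wild-type* and of -0.03, -0.06 and -0.09 in mutant libraries, on the log2 scale. The longer genes of like level deviated by -0.05, -0.09 and 0.07 in *wild-type* and by 0.01, 0.02 and 0.06 in mutant libraries. The part of library composition in the values of the 71 genes was not tested beyond the alternative above.

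**Figure D5:**
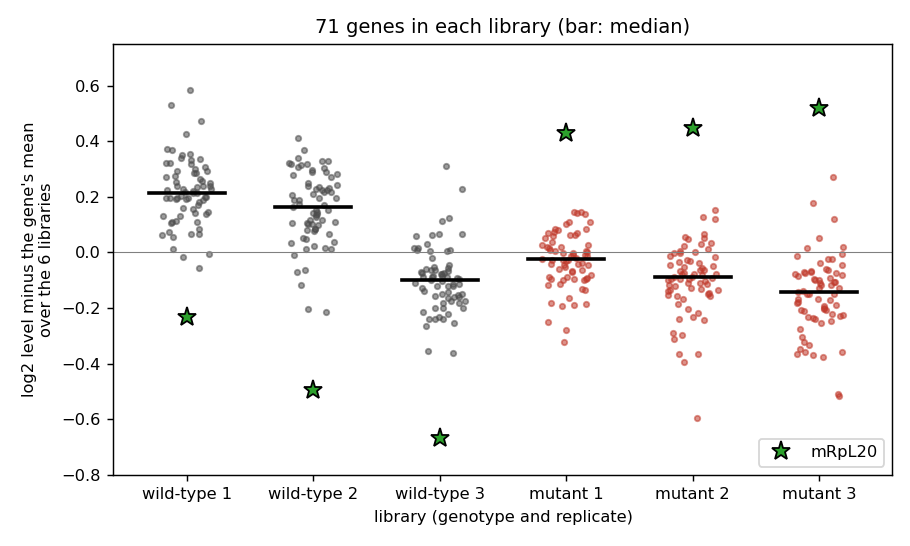
Log2 level of each of the 71 genes minus that gene's mean over the 6 libraries (y axis), by library (x axis), with a bar for the median of the library and a star for *mRpL20*. The *wild-type* medians are 0.21, 0.16 and -0.10, those of the mutant libraries are -0.02, -0.09 and -0.14, and *mRpL20* is low in every *wild-type* and high in every mutant library.

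The number of called genes depended on single libraries. At the adjusted p alone, edgeR called 1 of 71 without mutant replicate 1 or 2 and 2 without mutant replicate 3 or *wild-type* replicate 1. It called 3 without *wild-type* replicate 2 and 41 without *wild-type* replicate 3. For all of these fits but the last, the share over all features is not given here. The low counts there thus cannot be read as particular to the 71 genes. In that last fit 39 of the 71 (54.9%) were lower, where 17.7% of all features were lower and 37.9% changed. Of the 71, 4 passed both thresholds (15.7% of all features did), and the median of the 71 was -0.26 against -0.22 over the genes of like length and level. Past both thresholds 1 gene, *mRpL20*, was called without mutant replicate 1, mutant replicate 2 or *wild-type* replicate 1. With the replicate number as a block, 7 of 71 passed the adjusted p (9.84% of all features did). These were the 4 above with *mRpS16*, *mRpS35* and *mRpL9*, all of the added genes lower in the mutant, and 3 of 71 passed both thresholds (7.65% of all features). DESeq2 called 7 of 71 at the adjusted p and 3 past both thresholds, where it called 10.2% and 8.11% of all features.

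In 17 of the 71 genes (23.9%) all mutant libraries were below all *wild-type* libraries, which held for 11.8% of all features. That share is not given here for the genes of like length and level, of which 75.5% had negative values. The excess thus cannot be read as particular to the 71 genes. The 17 genes were *mRpL9*, *mRpL10*, *mRpL11*, *mRpL13*, *mRpL18*, *mRpL33*, *mRpL34*, *mRpL35*, *mRpL40*, *mRpL47*, *mRpL53* and *mRpL54* of the large subunit and *mRpS16*, *mRpS18B*, *mRpS21*, *mRpS25* and *mRpS35* of the small subunit. Among them, *mRpL10* had 26.9, 25.8 and 20.5 CPM in *wild-type* and 18.8, 18.8 and 19.0 CPM in mutant libraries. Its log2 fold change was -0.37 ± 0.13 (adjusted p = 0.163, edgeR). Its mutant values hardly differed, and *wild-type* replicate 3 was close to them. The opposite order held for *mRpL20* and *mRpL23*, 2 of 71 (2.82%), against 13.7% of all features. Of the small subunit genes with paralogues, *mRpS18A* had a log2 fold change of -0.08, *mRpS18B* of -0.32 and *mRpS18C* of -0.35, and none of them passed the test.

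The 71 genes share a compact arrangement in the genome that the choice by name did not use. They have a median of 2 exons against 4 over the 9705 tested protein-coding genes, and 51 of 71 (71.8%) have a gene on the opposite strand that starts within 500 bases upstream of their own start, against 33.8% of those genes. Of these divergent neighbours, 48 were tested, with a median log2 fold change of -0.07 and 27 negative values. *CG9004* beside *mRpL23* was the only one of the 48 that passed the adjusted p in the fit of all libraries without a block. With the block 4 of the 48 passed, *CG9004*, *norpA*, *CG12107* and *Dg*, and without *wild-type* replicate 3 there were 20. Of all features, 8.37% passed in the fit of all libraries, 9.84% with the block and 37.9% without *wild-type* replicate 3. Exons of 41 of the 71 (57.7%) overlap exons on the opposite strand, against 34.5% of the tested protein-coding genes. The shared part ranged from 0.3% of the exon bases in *mRpL39* to 55.3% in *mRpS24*. The libraries were stranded, but the strand setting of the counting is not given in the sources used here, so reads of such pairs may not have been told apart. On their own strand, 3 of the 71 (4.23%) overlap exons of another gene, against 9.55% of the tested protein-coding genes. They are *mRpL53*, *mRpS14* and *mRpL13*, which shares 35.2% of its exon bases with *CG10602*. Reads of these shared bases may not have been told apart under any strand setting. The lowest gene per kb, *mRpS14*, shares 32.0% of its exon bases with *Naa15-16* on the opposite strand and 3.8% with *CG32533* on its own strand. *CG32533* fell by 0.62 on the log2 scale (adjusted p = 0.0757, edgeR), a call that held only without *wild-type* replicate 3 among the fits that left out 1 library (0.155 to 0.267 in the others), and *mRpS14* had a log2 fold change of -0.13 ± 0.19.

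Of 2 further proteins of the small subunit whose genes carry other names, *tko* rose and *bonsai* did not pass the test. *tko*, named technical knockout for the bang-sensitive paralysis of its mutants, had 26.4, 27.9 and 29.5 CPM in *wild-type* and 45.1, 42.3 and 34.8 CPM in mutant libraries. The groups did not overlap, and mutant replicate 3 was the lowest of the mutants. Its log2 fold change was 0.54 ± 0.13 (adjusted p = 0.0444, edgeR), and the adjusted p was 0.174, 0.221 and 0.184 without mutant replicate 1, mutant replicate 2 or *wild-type* replicate 1. For *bonsai* the log2 fold change was -0.07 ± 0.11.

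Other genes of mitochondrial translation had values like those of the ribosomal proteins in the main fit. They are longer, with a median of 1711 exon bases over the translation factors and 2552 over the aminoacyl-tRNA synthetases, against 783. With the trend with exon length removed, the medians were -0.11 and -0.16, against -0.05 over the 71. None of 9 translation factors passed the test, with 8 negative and a median log2 fold change of -0.18. Without *wild-type* replicate 3, 3 of the 9 fell, where 17.7% of all features fell. Among them, *mEFTs*, the exchange factor of the elongation factor Tu, had a value of -0.29 ± 0.13 and *mEFTu1* of -0.20 ± 0.16. Of 15 mitochondrial aminoacyl-tRNA synthetases, which load amino acids onto tRNAs, 12 were negative and the median was -0.19. *ValRS-m* fell by 0.50 ± 0.12 (adjusted p = 0.0502, edgeR) and *AlaRS-m* fell by 0.38 ± 0.11 (adjusted p = 0.0904, edgeR), and the other 13 did not pass the test, whereas 6 of the 15 fell without *wild-type* replicate 3. With the replicate block the adjusted p was 0.0738 and 0.117. Both calls were lost without mutant replicate 1, mutant replicate 2 or *wild-type* replicate 1, at 0.18 to 0.192 for *ValRS-m* and 0.207 to 0.282 for *AlaRS-m*, and that of *AlaRS-m* also without mutant replicate 3 (0.255) or *wild-type* replicate 2 (0.169).

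The RNAs that this ribosome holds and reads did not pass the test. The 2 mitochondrial ribosomal RNAs summed to 7537 to 9634 CPM in *wild-type* and 8238.4 to 12175.7 CPM in mutant libraries, with mutant replicate 3 the highest. Of 12 mitochondrially encoded protein genes tested, 10 had positive and 2 negative values, with a median of 0.07. Libraries selected for poly-A tails measure these RNAs only in part. Of 13 genes of mitochondrial transcription and genome maintenance, 11 were negative with a median of -0.10, and of 66 nuclear genes of the respiratory chain and ATP synthase, 53 were negative with a median of -0.11, none past the test in either list. The 84 genes of the cytosolic ribosome had a median of -0.07, with 61 negative, and none passed the test. Without *wild-type* replicate 3, 5 of the 13, 13 of the 66 and 9 of the 84 fell and 1 of the 66 rose. In that fit 17.7% of all features fell and 20.2% rose.

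Of 7 regulators tied to the expression of mitochondrial or ribosomal genes, none passed the test, whereas *ewg* rose with the replicate block (log2 fold change 0.65, adjusted p = 0.044, edgeR). Without *wild-type* replicate 3, 3 rose and 1 fell, where 20.2% of all features rose and 17.7% fell. *Myc*, which drives ribosome production and growth, had 10.5, 24.6 and 86.2 CPM in *wild-type* and 11.2, 24.4 and 31.3 CPM in mutant libraries, with a log2 fold change of -0.86 ± 0.82. *Wild-type* replicate 3 was far above the rest, and without it the value was 0.39 (adjusted p = 0.668, edgeR). The log2 fold change was 0.28 ± 0.21 for *srl*, the fly relative of the coactivator PGC-1, and -0.12 ± 0.13 for *Ets97D*, the fly counterpart of a subunit of nuclear respiratory factor GABP. Without *wild-type* replicate 3 these were 0.55 (adjusted p = 0.0134, edgeR) and -0.24 (adjusted p = 0.0769, edgeR), and *srl* was at 0.10 without *wild-type* replicate 2, and *Ets97D* at -0.06 without *wild-type* replicate 1 or 2. Of 9 mitochondrial chaperones, proteases and quality control genes, 8 were negative with a median of -0.15, and *park*, a ubiquitin ligase of mitochondrial quality control, was the only one that passed the test (3 fell without *wild-type* replicate 3), with a fall of 1.49 ± 0.12 on the log2 scale (adjusted p = 0.000342, edgeR).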

How the data were processed

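RNA from 6 samples was measured, 3 per genotype. Per the labels and the study's methods, the authors trimmed stranded, poly-A selected paired-end reads with Trimmomatic 0.36, aligned them to dm6 with STAR 2.5.2a and removed duplicates. They deposited whole-number counts of reads per gene and transposable element (TE) family, without normalization, in 1 table of 17642 lines per library. The tables have the TEToolkit format. The counting options and the annotation release are not given in the sources used here. Symbols, exons and positions came from the BDGP6 annotation, release 115. The 71 members and all gene lists were chosen with earlier results of these data known.

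Counts were tested with the quasi-likelihood F-test of edgeR 4.0.16 in R 4.3.3 (TMM factors, robust shrinkage) over 10991 features with at least 10 counts over the 6 libraries, 10841 genes and 150 TE families. P-values were adjusted over all features by the Benjamini-Hochberg method. A feature was called at an adjusted p below 0.1, alone or with an absolute log2 fold change above 0.6, the thresholds of the study. SE is the absolute log2 fold change over the square root of F. CPM is counts scaled to 1000000 per library with TMM factors, and CPM per kb divides it by the union of the gene's exons. The scripts were tested on simulated data with less spread between libraries than measured here and without a trend with exon length. That test thus does not give the power or the rate of false calls for these data. No libraries of a genotype were the same within counting error, so precision was set by the spread between them more than by depth.

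Named members were those past the adjusted p, the 4 highest and 4 lowest by log2 fold change and by level per kb, and those within 1 Mb of *dLsd1*. Genes of the lists past both thresholds were added, with *dLsd1*, *tko*, *bonsai*, *Myc*, *srl* and *Ets97D*. *mRpS16* and *mRpL9*, the divergent and overlapping neighbours, the paralogues of *mRpS18*, *ewg*, *serp*, and the non-overlapping genes were named after their values were seen.

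GEO's labels number the replicates 1 to 3 in both genotypes. The deviations of same-numbered libraries from their genotype means correlated at 0.262, 0.14 and 0.389, although *wild-type* replicate 2 correlated more with mutant replicate 1 (0.211). The numbers may thus pair the samples. The main edgeR fit had no block, so its p-values ignore such a pairing. A block on the replicate number was used only as an alternative. Alternatives were this block, DESeq2 1.42.0, upper-quartile factors, TMM factors from genes alone, other minimum counts, no robust shrinkage, each library left out, and removal of the trend with exon length.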

Additional observations from a re-analysis of the deposited data

How the results depend on the processing

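The count of genes past both thresholds (3 of 71) stayed at 3 with DESeq2 and with the replicate block. It was 1 after removal of the trend with exon length, an alternative chosen after seeing the data. It ran from 1 to 4 when 1 library was left out, the highest without *wild-type* replicate 3. Of all features, 7.01% passed both in the main fit, 8.11% with DESeq2 and 7.65% with the block. The shares were 7.6% with the length trend removed and 15.7% without *wild-type* replicate 3. The count at the adjusted p alone (4 of 71) was 7 with DESeq2, 7 with the replicate block and 6 with the length trend removed. It ran from 1 to 41 when 1 library was left out, the highest without *wild-type* replicate 3, where 37.9% of all features passed. Of all features, 8.37% passed in the main fit, 10.2% with DESeq2 and with the length trend removed, and 9.84% with the block. For the other fits that left out 1 library, the share over all features is not given here. The block moved the median log2 fold change of the 71 genes by nothing at 2 decimals, and it ran from -0.26 to -0.12 when 1 library was left out. No direction of a called gene was reversed in the 14 other fits. *mRpS35* passed the adjusted p in edgeR with the block (0.0592), with the length trend removed (0.0929), without a minimum beyond 1 count (0.0933) and without *wild-type* replicate 3 (0.0105), and in DESeq2 (0.0709). *mRpL23* passed in DESeq2 (0.0918), with the length trend removed and without *wild-type* replicate 3 (0.0707). Other calls that the block changed, those of *AlaRS-m*, *norpA*, *ewg* and some tissue markers, stand in the report. Depth limited *wild-type* replicate 2 most, where the median count of the 71 genes was 521. The sum of fat body markers moved with single libraries, and all mutant sums were within the range of *wild-type*. The trend with exon length moved with single libraries as well as with genotype. The part of fat body and of this trend in the small, shared differences was not tested.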
